A study of Caenorhabditis elegans with 2 samples.

Results

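The autosomal intronic peaks of LIN-32 were the peaks whose summits lay inside introns of protein-coding genes on the 5 autosomes of Caenorhabditis elegans. They were chosen from the 2000 strongest nuclear peaks, by signal, of the peak list that the authors called on both replicates together. A peak was kept when its summit, the position of highest signal, lay more than 500 bp from any tRNA gene, outside all exons and promoters (from 1000 bp before to 200 bp past the 5′ end of a protein-coding transcript), and inside a protein-coding transcript. This gave 284 peaks of the 2000, and of 26004 nuclear peaks in all. The same 2000 peaks held 640 autosomal promoter peaks, 376 autosomal distal intergenic peaks, 118 autosomal exon peaks, 127 autosomal peaks beside tRNA genes and 455 peaks on chromosome X. The choice used pooled signal and position, so signal, replicate support and membership of the authors' IDR set (explained below) are described here without tests.

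Peaks came from chromatin immunoprecipitation and sequencing (ChIP-seq) of a single group, mixed-stage embryos of pooled sexes at a labelled age of 3 h, in 2 biological replicates. Strain OP740 carried the transgene wgIs740, in which lin-32 is fused at its C-terminal end to TY1, EGFP and 3xFLAG tags beside an unc-119(+) marker, in an unc-119 (tm4063) mutant background. Per the labels, the immunoprecipitation used an anti-GFP antibody, though another field names lin-32 as the antibody. Whole embryos were used, so strong binding in few cells and weak binding in many cannot be told apart, and peak lists hold no expression values by which the cells could be checked against markers. Both replicates are of 1 transgenic strain, both were called against the same control alignment, and no second condition was compared. Read depth is unknown, because the lists give only a signal on a scale that is not stated and a q-value.

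LIN-32 is a proneural transcription factor of the basic helix-loop-helix (bHLH) family, the worm relative of Drosophila Atonal. Such factors form dimers with an E protein, HLH-2 in the worm, and bind E-boxes, hexamers of the form CANNTG. In C. elegans, lin-32 is required for several sensory neuron lineages, including touch receptor neurons and the ray neurons of the male tail. Most worm introns are short, while long introns of developmental genes often hold regulatory elements.

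The windows from 50 bp before to 50 bp after the summits are given for 6 of the strongest peaks that held CAGATG or CAGCTG, the E-boxes called Atonal-type here, because the sequence results turn on these hexamers. Both hexamers were sought on either strand, so that CATCTG on the strand shown is CAGATG on the other. Sequences are the plus strand of the RefSeq assembly WBcel235 (ce11), 5′ to 3′, and capitals mark every CANNTG.
pxn-1, intron 17, chrV:8500515-8500615: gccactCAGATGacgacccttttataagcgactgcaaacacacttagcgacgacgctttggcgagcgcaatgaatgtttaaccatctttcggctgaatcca
Y38F2AR.12, intron 5, chrIV:2408633-2408733: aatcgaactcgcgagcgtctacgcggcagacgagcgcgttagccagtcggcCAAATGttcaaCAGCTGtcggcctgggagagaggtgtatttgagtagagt
cyd-1, intron 5, chrII:12991337-12991437: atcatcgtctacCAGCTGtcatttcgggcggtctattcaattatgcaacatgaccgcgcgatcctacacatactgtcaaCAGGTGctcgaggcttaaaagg
trpa-1, intron 5, chrIV:11867819-11867919: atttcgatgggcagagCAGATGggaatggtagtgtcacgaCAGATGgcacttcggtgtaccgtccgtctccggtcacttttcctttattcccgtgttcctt
fmi-1, intron 4, chrV:13021686-13021786: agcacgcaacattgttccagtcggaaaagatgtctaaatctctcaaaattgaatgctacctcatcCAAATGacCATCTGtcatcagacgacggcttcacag
shc-2, intron 5, chrII:4981858-4981958: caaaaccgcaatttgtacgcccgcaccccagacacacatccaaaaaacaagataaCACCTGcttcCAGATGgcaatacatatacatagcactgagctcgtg

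The trpa-1 window held CAGATG at 2 places, centred 31.5 and 7.5 bp from the summit. In shc-2, a CACCTG and a CAGATG stood 7.5 and 17.5 bp from the summit. The pxn-1 hexamer lay near the edge of its window, 41.5 bp from the summit.

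The 2 strongest peaks without an Atonal-type hexamer lay in introns of cutl-18 and frm-7. They are shown because they held another motif that recurred among the strongest peaks, the 9-mer GTTCNANNC. It is a loose pattern for the core of the B box in the internal promoters of tRNA genes. The RNA polymerase III factor TFIIIC binds the B box. N is any base, so a match to the 9-mer need not be a B box. Here capitals mark CANNTG and GTTCNANNC.
cutl-18, intron 7, chrV:11314164-11314264: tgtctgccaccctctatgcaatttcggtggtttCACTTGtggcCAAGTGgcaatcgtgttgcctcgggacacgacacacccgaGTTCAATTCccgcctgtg
frm-7, intron 4, chrV:12303579-12303679: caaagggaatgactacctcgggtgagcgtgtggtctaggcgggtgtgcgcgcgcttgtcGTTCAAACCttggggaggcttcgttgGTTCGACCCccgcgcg

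The strongest intronic peak lay in intron 4 of the Wnt receptor gene lin-17, a Frizzled homologue. Its signal was 777 in the pooled list, 401 in replicate 1 and 377 in replicate 2, where it ranked 2 and 3 among nuclear peaks. The cutl-18 peak, in a gene of the cuticlin-like family, followed with 746 pooled, 400.3 in replicate 1 and 347 in replicate 2. The frm-7 peak, in a FERM-domain gene, had 737 pooled, 380 in replicate 1 and 356 in replicate 2. All of these were high in both replicates, as was the peak in pxn-1, a peroxidasin gene of the extracellular matrix, with 642 pooled, 338 in replicate 1 and 300 in replicate 2.

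Below these, the 20 strongest members reached down to a pooled signal of 303. In order, the other hosts were mpk-2, a MAP kinase gene (508), ppfr-1, a regulatory subunit of protein phosphatase 4 (501), Y43F8C.7 (451), Y38F2AR.12 (412), the Eph receptor gene vab-1 (396), the cyclin D gene cyd-1 (369) and trpa-1 (368), which encodes a TRPA channel. They were followed by the P-type ATPase gene catp-8 (353.3), the TWIK-family potassium channel gene twk-5 (353.3), let-526 (338), a subunit gene of SWI/SNF chromatin remodelling complexes, the FERM-domain gene frm-4 (329), the Integrator subunit gene ints-8 (321) and madf-11 (321), named for its MADF domain. The last were the Flamingo-type cadherin gene fmi-1 (317), pdl-1 (314) and the dynein heavy chain gene dhc-4 (303). The 20 summits were matched in both replicates within 100 bp, and their worst ranks were 136 in replicate 1 and 135 in replicate 2. Not all were equal in both: the let-526 peak had 125 in replicate 1 and 216 in replicate 2, and the madf-11 peak had 186 and 134.

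Over all 284 members the pooled signal ran from 70.6 to 777 with a median of 92.9. The median of autosomal promoter peaks was also 92.9 and that of distal intergenic peaks was 93.2. A summit was matched within 100 bp in both replicate lists for 258 members (90.8%, exact Clopper-Pearson 95% interval 86.9 to 93.9%), beside 90.7% of all 2000 peaks. The share was thus at the background of the 2000. Of the rest, 15 members were matched in replicate 1 alone and 11 in replicate 2 alone. The replicate lists hold 30000 and 22601 nuclear peaks, so a matching peak can be weak. In 138 members (48.6%, 42.6 to 54.6%) the matched peaks ranked among the 2000 strongest of both replicates, beside 50.7% of all 2000. These intervals, and those below, cover counting error over peaks only.

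In the 258 members matched in both, the replicate 1 signal ran from 16.9 to 401 and the replicate 2 signal from 18.6 to 377. Across these peaks the Spearman correlation of the signals was 0.63, and Pearson's r of their log2 values was 0.78. This is a description, since peaks of 1 library are not independent and both values enter the pooled signal. The pooled signal was close to the sum of the replicate signals, with a median ratio of 1.00 and quartiles of 0.977 and 1.04. In 22 members the replicate signals differed 2-fold or more.

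The authors' IDR set (irreproducible discovery rate, a procedure that selects peaks by how well ranks repeat) held 143 of the members (50.4%, 44.4 to 56.3%), beside 52.1% of all 2000. The members in the set had pooled signals of 92.8 and above, and those outside it of 92.3 and below, so the division followed the pooled signal. Among the 138 members of the IDR set matched in both replicates the Spearman correlation was 0.78. Among the 120 outside the set it was -0.53, in a group whose pooled signals spanned only 70.6 to 92.3.

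**Figure D1:**
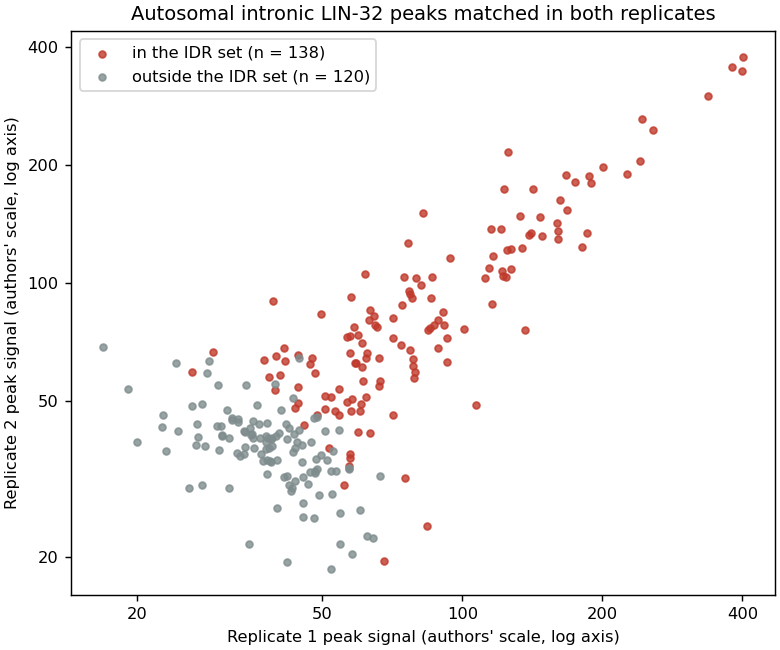
Signal of each intronic peak in replicate 1 (x axis) and replicate 2 (y axis), on the authors' scale and log axes, for the 258 peaks matched in both, with those of the IDR set in red. The red points rise together up to the lin-17 peak at 401 and 377, while the grey points form a band of nearly constant sum.

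The lower limit of the choice fell in a dense part of the list. The last members were in introns of Y39B6A.29 (pooled signal 70.9), ins-35 (70.8), an insulin-like peptide gene, and ntl-3 (70.6), a subunit gene of the CCR4-NOT complex. The next intronic candidates, just outside, lay in Y18H1A.15 (70.42), cnt-2 (70.41) and Y48G8AL.15 (70.36). The Y39B6A.29 peak had no replicate 2 summit within 100 bp and neither had the Y48G8AL.15 candidate, so 1 peak of 3 lacked a match in that replicate on each side of the limit.

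Members lay mostly in long introns. The median host intron was 2847 bp long (quartiles 770 and 5382, range 47 to 19927 bp), and 171 members (60.2%, 54.3 to 65.9%) lay in introns of 2000 bp or more. The intronic bases in which a member could have lain, called eligible here, amounted to 22.5 Mb, and a base drawn from them lies in an intron of 983 bp at the median. Members numbered 0.65 to 0.74 per 100 kb of eligible sequence in the 3 classes of introns under 2000 bp. They numbered 2.62 per 100 kb (exact Poisson 95% interval 2.11 to 3.20) in introns of 2 to 5 kb, 2.41 (1.78 to 3.20) in those of 5 to 10 kb and 2.77 (1.86 to 3.98) in longer ones. The intervals of the 3 longer classes overlapped each other and lay above those of the 3 shorter ones.

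Density differed less by the order of the intron in the transcript. The first intron held 74 members (26.1%, 21.05 to 31.6%), beside 20.4% of the eligible bases, with densities of 1.62 per 100 kb (1.27 to 2.03) in first introns and 1.09 to 1.26 in the later classes. The last intron held 9.15% of members (6.07 to 13.1%) and 15.4% of the eligible bases. In 181 members (63.7%, 57.8 to 69.3%) the intron was the longest of the host transcript. Summits were spread along the intron, with 51.8% (45.8 to 57.7%) in its 5′ portion up to the midpoint.

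The choice of members had already removed summits in promoters. The median distance from the nearest protein-coding 5′ end was 1722 bp, near the 1659 bp of the eligible bases. Of the members, 156 (54.9%) lay within 2 kb of such an end and 30 lay over 5 kb away. That 5′ end belonged to the host in 244 members (85.9%, 81.3 to 89.7%) and to another gene in 40, as for the vab-1 peak, whose nearest 5′ end was that of ipla-1. A host or a nearest gene is a neighbour and is not shown to be a target. Along the chromosomes, the density was 1.67 per 100 kb (1.28 to 2.14) on chromosome II, 1.55 (1.21 to 1.96) on III, 1.27 (0.973 to 1.62) on I, 1.10 (0.821 to 1.44) on V and 0.81 (0.571 to 1.12) on IV. The intervals of II and III did not overlap that of IV, while neighbours in this order overlapped.

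**Figure D2:**
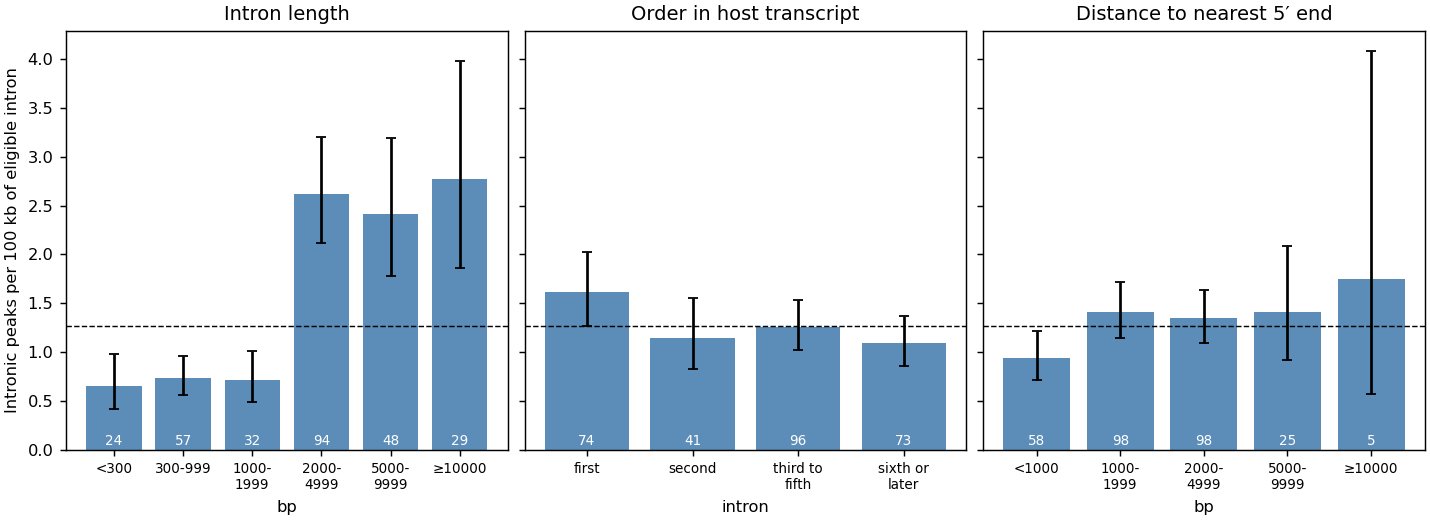
Intronic peaks per 100 kb of eligible intronic sequence by length of the host intron, order of the intron in the host transcript and distance to the nearest protein-coding 5′ end, with exact Poisson 95% intervals and the number of peaks in each bar. The dashed line is the density over all eligible introns, 1.26 per 100 kb, and the bars for introns of 2000 bp or more stand above it at 2.41 to 2.77.

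The members had 226 host genes among 14365 autosomal protein-coding genes with eligible intronic sequence, a background of 1.57%. Hosts with a single member numbered 188, and 38 hosts held 2 or more, with 96 members between them. Hosting followed the amount of intron: 0.288% of genes with under 1000 bp of eligible intron were hosts, against 20.7% (16.3 to 25.7%) of those with 10 kb or more.

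The 13 hosts of 3 or more members differed in how their peaks were arranged. The gene lsy-22, which encodes a Groucho-related protein that acts in the left-right asymmetry of taste neurons, held 6 members, all in its first intron of 11392 bp and spread over 6519 bp. Their pooled signals were 77.5, 77.6, 98.4, 104 (in each of 2 peaks) and 138, so none was among the strongest, and 5 were matched in both replicates. Y111B2A.12 held 5 in its intron 4, with signals from 86.3 to 212. All 5 were matched in both replicates, the strongest with 112 in replicate 1 and 103 in replicate 2.

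Other hosts combined strong and weak peaks. In shc-2, a Shc-type adaptor gene, 4 members in 4 introns had signals of 97.4, 135, 290.3 and 293. In ppfr-1, 4 members in 2 introns ran from 89.2 to 501, and 1 of the weaker ones was not matched in replicate 1. The central 50 bp of the ppfr-1 peak of 142 occur at 49 places in the genome, so its place is uncertain. The 3 members in cyd-1 had 74.2, 273 and 369, and both strong ones, which were 6508 bp apart, held an Atonal-type hexamer. In vab-1, the 3 members had 126, 157 and 396, all were in the IDR set and none held the hexamer. In trpa-1, peaks of 85.7, 120 and 368 lay in the same intron of 5929 bp, and the summits of 85.7 and 368 were 205 bp apart with overlapping peak intervals.

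The remaining 6 hosts of 3 members each held peaks of 171 or less. They were pac-1, a gene of radial polarity in the embryo (73.1 to 171), sea-2, a zinc-finger gene (81.0 to 163), and ptp-3, which encodes a LAR-type receptor tyrosine phosphatase (71.2 to 141). The others were kal-1, the worm gene for anosmin (73.2 to 109), hmr-1, the classical cadherin gene (87.2 to 94.7), and ncl-1 (75.4 to 78.7), a Brat-related gene that limits nucleolus size. The ncl-1 peaks were all outside the IDR set, and 1 had a signal of 19.1 in replicate 1, at rank 21810, and 53.5 in replicate 2.

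Some counts per host rest on summits close to each other. In 7 hosts (ppfr-1, trpa-1, ast-1, sea-2, mdt-26, ric-7 and klp-6) a pair of members had summits 199 to 252 bp apart, and in all 7 pairs the peak intervals overlapped. With summits within 300 bp counted once, 34 hosts held 2 or more and 11 held 3 or more.

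**Figure D3:**
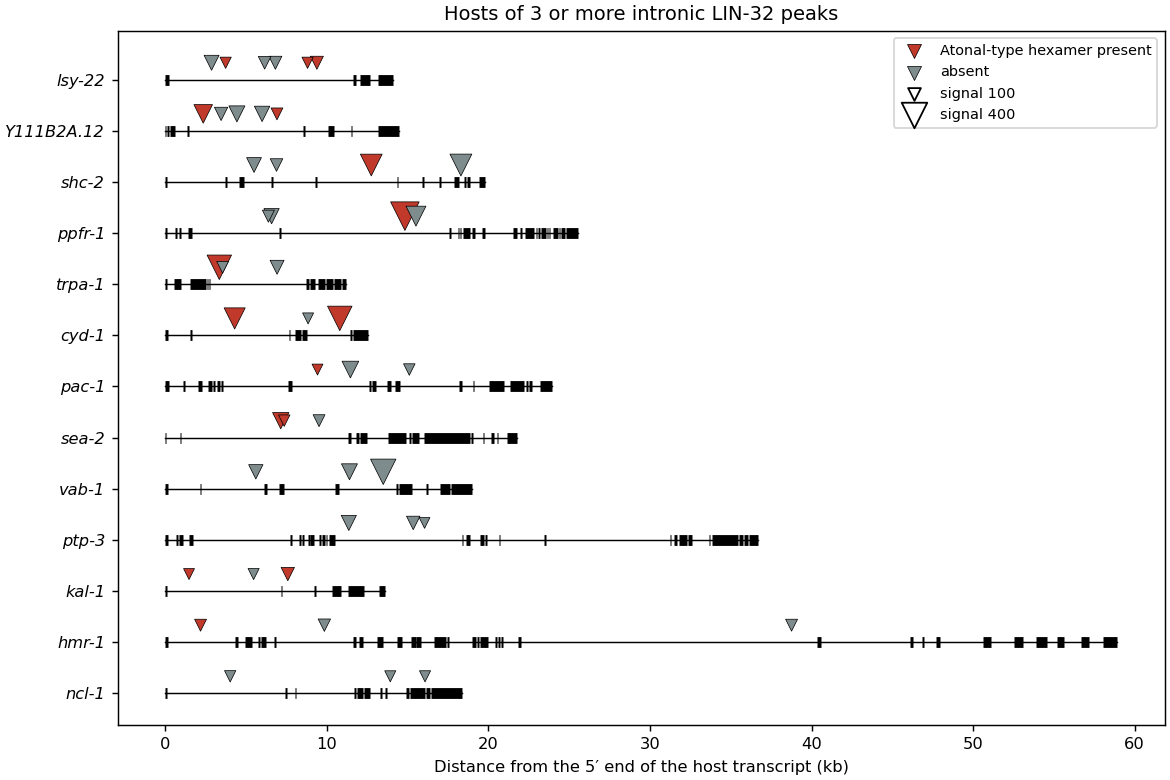
Exons (black boxes) of the host transcript of each gene with 3 or more intronic peaks, with peaks as triangles at their distance from the transcript's 5′ end in kb, sized by pooled signal and red where an Atonal-type hexamer lay within 50 bp of the summit. The 6 peaks of lsy-22 and the 5 of Y111B2A.12 share 1 intron each, while the 3 of hmr-1 are spread over 36586 bp.

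Hosts among lists of genes were counted, with no test of a list, beside the 1.57% of all eligible genes. In the Wnt pathway list 6 of 27 eligible genes were hosts (22.2%, 8.62 to 42.3%). Beside lin-17, they were mom-2, a Wnt ligand gene, with a pooled signal of 158 (84.4 in replicate 1, 75.8 in replicate 2), and lit-1, the Nemo-like kinase gene, with 122 (66.2 and 64.4). The weaker hosts were pop-1, the TCF gene (99.5), the Ror receptor gene cam-1 (80.4) and the Prickle gene prkl-1 (73.8). The cam-1 peak was not matched in replicate 1, the pop-1 peak had 29.1 in replicate 1 and 66.7 in replicate 2, and of the 6 peaks the lin-17 peak alone held an Atonal-type hexamer.

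Axon guidance and neuronal adhesion genes hosted 18 members in 10 of 34 eligible genes (29.4%, 15.1 to 47.5%). Receptors and adhesion proteins led. The vab-1 peak of 396 had 200.5 in replicate 1 and 197 in replicate 2, and the fmi-1 peak of 317 had 142 and 174. The sax-2 peak, in the gene of a Furry-related protein of neurite growth, had 228 (114 and 109), and the sax-7 peak, in the L1CAM gene, had 173 (79.6 and 103). The ephrin gene efn-4 held 2 members in its first intron, with 150 and 114. Further members lay in unc-33, which encodes a CRMP protein (143), ptp-3 (141), the immunoglobulin-domain gene rig-5 (125), the semaphorin gene smp-1 (100.1) and hmr-1 (94.7). Of the 18, 14 were in the IDR set and 6 held an Atonal-type hexamer. The unc-33 peak was uneven, with 67.8 in replicate 1 and 19.6 in replicate 2.

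Among neuronal transcription factor genes 7 of 48 (14.6%, 6.07 to 27.8%) were hosts. The strongest of their peaks lay in the first intron of ztf-11, the MyT1-type zinc-finger gene, with 228 pooled, 124 in replicate 1 and 103 in replicate 2. The ETS-domain gene ast-1 had 2 members, of 123 and 88.9, in 1 intron. The central 50 bp of the stronger ast-1 peak occur at 49 places in the genome, so its place is uncertain. The other hosts were the aryl hydrocarbon receptor gene ahr-1 (100.2), the MTA-type gene egl-27 (93.1), the homeobox genes vab-7 (83.7) and unc-42 (79.2), and sem-4 (74.7), a Spalt-type zinc-finger gene. The ahr-1 and egl-27 peaks were in the IDR set, and the last 3 were outside it.

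These 3 lists hold genes with more intron than most, with medians of 1.88, 6.28 and 2.45 kb of eligible sequence per gene against 0.656 kb for all genes. Applying the host share of all autosomal genes in each of 5 size classes to the lists gives 0.905 hosts for the Wnt list, 3.24 for the guidance list and 1.46 for the transcription factor list, where 6, 10 and 7 were counted. Per 100 kb of eligible intron, the lists had 6.67 (2.45 to 14.5), 5.76 (3.41 to 9.10) and 5.70 (2.46 to 11.2) members, beside 1.26 over all genes. These intervals treat peaks of the same gene as independent. The lists were chosen with earlier results on these data known, so the counts are a description.

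Cell cycle genes had 2 hosts of 33, cyd-1 and the phosphatase gene cdc-25.2, where the size classes give 0.434. They held 5 members in 45.7 kb of eligible intron, 10.9 per 100 kb (3.55 to 25.5). That interval treats peaks of the same gene as independent, so it is too narrow. The cdc-25.2 members had 103 and 72.8. Cytoskeletal and scaffold genes had 5 hosts of 30, led by frm-7 and frm-4, where the size classes give 1.73. Their others were unc-53 (109), unc-70 (102), the beta-spectrin gene, and mpz-1 (86.6).

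The lists that follow had 3 hosts or fewer each. Ion channel genes had 3 hosts of 37 (2.73 from the size classes), led by the TRPM channel gene gon-2 (96.8) and the BK channel gene slo-1 (78.6). The list did not contain trpa-1 or twk-5. A single host each was found among synaptic and pan-neuronal genes (unc-104, a kinesin gene, 171), basement membrane genes (pxn-1), Notch pathway genes (sel-8, a Mastermind-type gene, 137), epidermis and junction genes (hmr-1) and germline genes (mex-5, a CCCH zinc-finger gene, 74.6). The size classes give 1.25, 1.05, 0.545, 1.09 and 0.193 hosts for these lists in that order. None of 37 neurotransmitter and neuropeptide receptor genes, 18 body muscle genes or 14 intestine genes was a host. The size classes give 1.85, 1.20 and 0.552 hosts for them, or 4.99, 6.67 and 3.94% of their genes. A count of 0 (3 divided by the number of genes) allows here shares of up to 8.11, 16.7 and 21.4%. These limits are above the shares from the size classes and the 1.57% of all genes, so a lack of hosts could not be shown.

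Atonal-type hexamers lay within 50 bp of the summit in 75 members (26.4%, 21.4 to 31.9%), beside 24.5% of all 2000 peaks. In windows of the same length centred 500 bp to each side, of which there were 568, the share was 7.22% (5.23 to 9.67%). With the flank windows limited to the 409 centred in introns it was 5.62%. CAGATG was present in 19.01% of members against 4.58% of flanks, CAGCTG in 8.45% against 2.64% and CACCTG in 13.4% against 4.23%. The centre of the nearest Atonal-type hexamer lay 17.5 bp from the summit at the median, 64 members held 1 such hexamer and 11 held more.

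Base composition moved with these shares. Windows at member summits had 47.5% ± 7.45 GC (SD, n = 284), against 37.1% ± 8.60 in the flanks (SD, n = 568). Hexamers that are no E-box were compared by the number of G and C bases they hold. Those with 3, as in CAGATG, had a pooled ratio of summit to flank shares of 1.22, against 4.15 for CAGATG, and those with 4, as in CAGCTG and CACCTG, had 1.66, against 3.20 and 3.17. These pooled values hide a wide range. Among 163 single hexamers of 3 G or C bases that were no E-box and were found at 5% or more of summits and in at least 3 flanks, the median ratio was 1.6, and 4 had a ratio above that of CAGATG. The highest was GCTAAC (7.5, from 15 summits and 4 flanks), another was ACACAG (5.33), and the others each share 5 bases with an Atonal-type hexamer. Among such hexamers of 4 G or C bases the median was 2.5, and 25.7% were above CAGCTG and 26.7% above CACCTG. The floor of 5% of summits favours hexamers with high ratios. These ranks therefore cannot show whether the E-boxes stand apart from other hexamers of their base composition.

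The intronic peaks were then compared with promoter and distal intergenic peaks of the same 2000 for 5 motifs, giving 10 two-sided Fisher's exact tests over peaks, adjusted by the Benjamini-Hochberg method. Sequence was not used in the choice of peaks, but peaks that share a host or region are not independent. CACCTG was called, at 13.4% of intronic and 7.19% of promoter summits (odds ratio 1.99, exact test, adjusted p = 0.041). In the flank windows its share was 4.23% (2.73 to 6.22%) for intronic and 2.66% (1.85 to 3.69%) for promoter peaks, with overlapping intervals. The ratios of summit to flank shares were 3.17 and 2.71. With intronic flank windows limited to those centred in introns, the share was 3.67% and the ratio 3.65. Whether the difference was confined to the summits was not tested. The other 9 tests did not pass. The Atonal-type share was 21.6% (18.4 to 24.95%) at promoter peaks (odds ratio 1.31, exact test, adjusted p = 0.18) and 34.3% (29.5 to 39.3%) at distal intergenic peaks (odds ratio 0.687, exact test, adjusted p = 0.084). CAGATG alone, at 12.5% of promoter and 26.6% of intergenic summits, had odds ratios of 1.64 and 0.648 (exact tests, adjusted p = 0.056 and 0.084).

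Several calls changed with the settings. With promoters of 500 bp upstream to 100 bp downstream, the Atonal-type difference from promoter peaks passed (odds ratio 1.68, exact test, adjusted p = 0.012), and with 2000 bp and 500 bp it turned to 0.976. Without replicate 2 the odds ratio against promoter peaks was 0.988. The lower share against intergenic peaks passed with 1000 peaks, with 4000 peaks, without the tRNA rule and without replicate 2 (odds ratios 0.531 to 0.62, exact tests, adjusted p from 0.0015 to 0.033). The CACCTG call was lost with 4000 peaks, with the wider promoters, without the tRNA rule and with windows of 25 bp (odds ratios 1.48 to 2.08, exact tests, adjusted p from 0.079 to 0.16). In the other 9 of 13 alternatives it passed (odds ratios 1.87 to 3.25, exact tests, adjusted p from 0.0010 to 0.049).

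**Figure D4:**
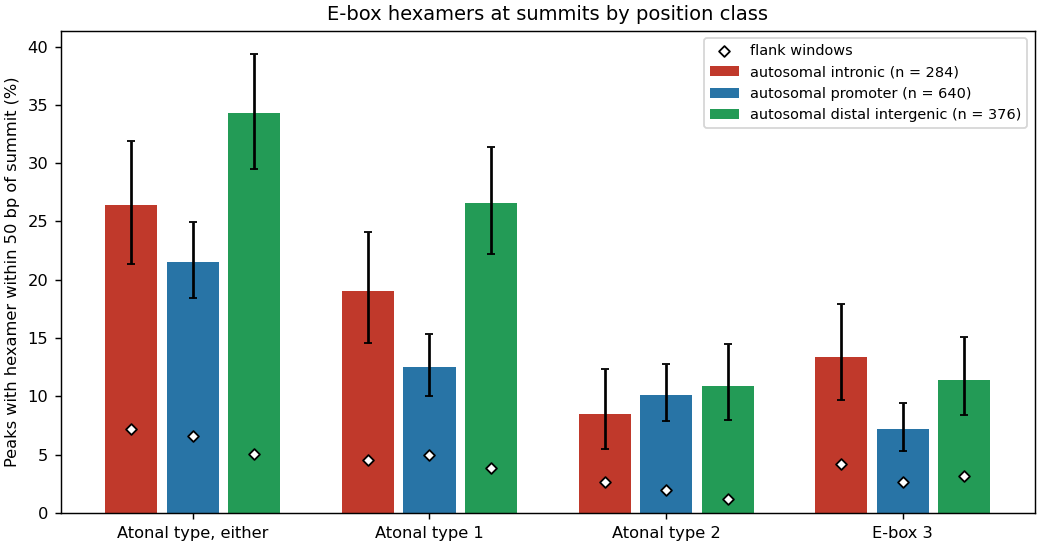
Share of intronic, promoter and distal intergenic peaks with a hexamer within 50 bp of the summit, with exact 95% intervals, and the share in flank windows (diamonds). Atonal type 1 is CAGATG, Atonal type 2 is CAGCTG and E-box 3 is CACCTG. Intronic peaks lie between the other classes for the Atonal-type pair, at 26.4%, and above promoter peaks for CACCTG.

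Within the intronic peaks, the hexamer was unevenly distributed. These divisions were made after the values were seen, so they are given with intervals and no test. It was present in 34.3% (26.5 to 42.7%) of members in the IDR set and 18.4% (12.4 to 25.8%) of the others, and the median pooled signal was 110 with it and 88.0 without. By length, it was found in 66 of 203 members in introns of 1000 bp or more (32.5%, 26.1 to 39.4%) and in 9 of 81 in shorter introns (11.1%, 5.21 to 20.05%). By order, it was found in 29 of 74 members of first introns (39.2%, 28.0 to 51.2%) and 46 of 210 in later ones (21.9%, 16.5 to 28.1%). In introns of 1000 bp or more the shares were 44.3% (31.5 to 57.6%) in first and 27.5% (20.3 to 35.6%) in later introns.

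The same divisions were made in the 2000 strongest peaks of each replicate alone. In replicate 1 the share was 26.4% in introns of 1000 bp or more and 9.89% in shorter ones, and in replicate 2 it was 28.2% and 10.99%. First and later introns had 27.6% and 19.3% in replicate 1, and 32.5% and 19.6% in replicate 2. The order was thus the same in both replicates, both of which enter the pooled list.

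**Figure D5:**
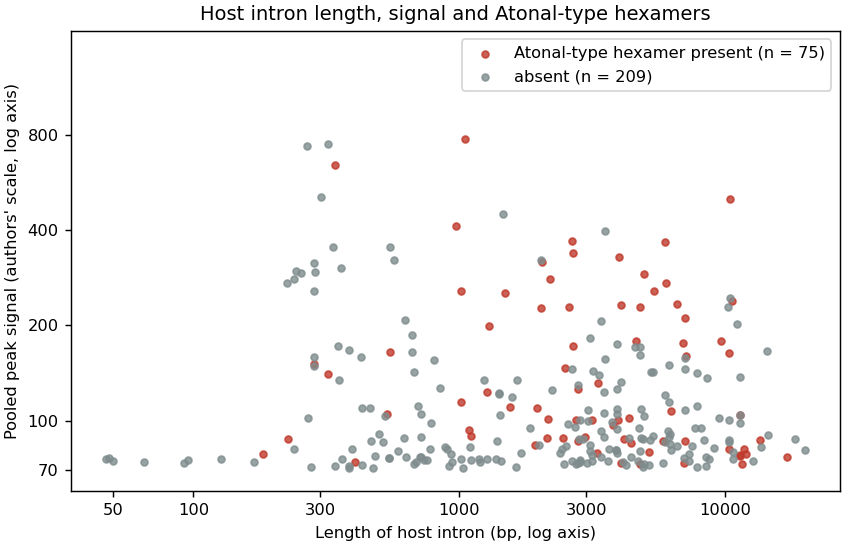
Pooled signal of each intronic peak against the length of its host intron, on log axes, with the 75 peaks that hold an Atonal-type hexamer in red. A group of strong peaks without the hexamer stands at introns of 200 to 400 bp, apart from the strong peaks with it, most of which lie in introns of 1000 bp or more.

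The 30 strongest members were divided by the hexamer. The 13 with it lay in introns of 2656 bp at the median, and 2 of them lay in introns under 1000 bp, one being that of pxn-1 (341 bp). The other 17 had a median intron of 301 bp, and 14 of them lay in introns under 1000 bp. Those with the hexamer include members of lin-17, pxn-1, ppfr-1, cyd-1 and trpa-1, and those without it members of cutl-18, frm-7, mpk-2, catp-8 and dhc-4.

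The B-box 9-mer GTTCNANNC, sought on both strands within 50 bp after the sequences had been seen, was present in 9 of the 30 strongest members (30%, 14.7 to 49.4%) and 7 of the other 254 (2.76%, 1.12 to 5.60%). Of the 9, 8 lacked an Atonal-type hexamer: those of cutl-18, frm-7, mpk-2, Y43F8C.7, madf-11, haf-9, mix-1 and T24H7.2. Their introns were 224 to 1466 bp long. The fmi-1 peak held both motifs. The 9-mer was in 6.67% of the flank windows of the 30 strongest members and in 2.36% of those of the others. Over all members the 9-mer was at 16 summits (5.63%, 3.25 to 8.99%) and in 2.82% of flank windows, beside 8.60% of all 2000 peaks, 3.28% of promoter peaks and 4.79% of distal intergenic peaks. Autosomal peaks within 500 bp of an annotated tRNA gene, none of which is a member, had it at 48.0% (39.1 to 57.1%). None of the 74 members in first introns had it, which allows a share of up to 4.05%. In their flank windows the share was 0.676%.

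Small RNA genes also stood at some of the strongest summits. A summit lay inside an annotated ncRNA, snoRNA or snRNA gene of up to 350 bp in 27 members (9.51%, 6.36 to 13.5%), while such genes cover 0.834% of the eligible bases. Among promoter and distal intergenic peaks the shares were 7.34% and 7.18%. Of the 30 strongest members 8 were of this kind (26.7%, 12.3 to 45.9%), in introns of frm-7 (in the snoRNA gene C51F7.4), catp-8, ints-8 (in rpr-1), madf-11, dhc-4 (in an snRNA gene), haf-9, ipmk-1 and tba-7. All 27 were matched in both replicates and 5 held an Atonal-type hexamer. The members in fars-1 (172) and unc-104 (171) lay inside tRNA pseudogenes of the RefSeq annotation, which the rule on tRNA genes does not cover. Whether RNA polymerase III activity at these sites contributes to their signal was not tested.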

How the data were processed

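Peak lists from 2 biological replicates of GFP-tagged LIN-32 embryos were used. Per the deposited file notes, the authors called peaks on each replicate and on both together, against 1 control alignment, and derived the IDR set from them. The build is ce11 per the labels (WBcel235). Aligner, caller and IDR threshold: not given in the sources used here. Peak signal is the authors' deposited value per peak, on a scale that is not stated, and was used to rank and describe peaks. The deposited −log10 q-value ran from 0.895 to 2.95 among the members. Read depth is unknown.

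Summits, not intervals, were placed on Ensembl release 115. Classes were assigned in the order X, tRNA gene within 500 bp, promoter, exon, intron, intergenic. The host intron was that of the longest protein-coding transcript with the summit in an intron. Shares carry exact Clopper-Pearson 95% intervals and densities exact Poisson ones. E-box shares were compared by two-sided Fisher's exact tests with Benjamini-Hochberg adjustment over 10 tests at 0.05, tested on simulated sequences with planted hexamers, and class assignment on a toy annotation.

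Members and the 15 gene lists (581 genes) were chosen with earlier results of these data known. Of the lists, 1 is not reported here. Named genes are hosts of the 20 strongest members, hosts of 3 or more, the 2 hosts with the strongest member in each list, the 3 peaks on each side of the threshold, and lin-17. Other names were chosen after their values were seen, as were the B-box 9-mer, the small RNA genes and the divisions by intron. Alternatives covered the number of peaks, IDR peaks alone, promoter and tRNA windows, non-coding promoters, the motif and match windows, the host intron and each replicate alone. Python 3.11.15, numpy 2.4.6, scipy 1.17.1, pandas 2.3.3 and matplotlib 3.10.9 were used.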

Additional observations from a re-analysis of the deposited data

How the results depend on the processing

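The first-intron share and the median intron length moved least: the share left its interval only with the shortest intron of all transcripts (32.4%), and the length with 4000 peaks (2422 bp) and without the tRNA rule (2145 bp). With 1000, 4000 or IDR peaks alone there were 140, 666 and 143 members and 13, 110 and 13 hosts of 2 or more, and the Atonal-type share was 34.3, 16.97 and 34.3%. That share was 17.96% within 25 bp and 34.5% within 100 bp. The share matched in both replicates was 96.4, 80.8 and 96.5% with 1000, 4000 and IDR peaks, 71.5% within 50 bp and 98.9% within 250 bp. The IDR share was 100% with 1000 peaks, 21.5% with 4000 and 44.1% with non-coding promoters left out. With IDR peaks alone it is fixed, so no value was taken.

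Against intergenic peaks, the lower Atonal-type share passed with 1000 peaks (odds ratio 0.533), 4000 peaks (0.62) and no tRNA rule (0.597). Against promoter peaks, a higher Atonal-type share passed with narrow promoters (1.68), and the direction reversed with wide ones (0.976). CACCTG no longer passed with 4000 peaks (1.48), no tRNA rule (1.69), wide promoters (1.85) and windows of 25 bp (2.08). The cause was not tested. Without 1 replicate, the matched share was 65.2 to 73.03% and the IDR share 42.8 to 45.5%. Both are other measures than the pooled shares. There each peak always matches its own list, so the matched share counts matches in the other replicate only. IDR membership there means an IDR summit within 100 bp. The odds ratio against promoter peaks was 0.988 to 1.35 (below 1 without replicate 2). That against intergenic peaks was 0.531 to 0.684, which passed without replicate 2 (Fisher's exact adjusted p = 0.0015). Leaving out peaks with GTTCNANNC, chosen after seeing the data, changed no call among the 4 E-box results (share 26.5%). No paired analysis was possible because there is 1 group.

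Peaks that share an intron are not independent, read depth is unknown, and 1 control alignment serves both replicates. The peak intervals of 73 members overlap an exon, and 27 summits lie within 50 bp of one. Widths come from the caller, so the summit's place carries an error that the lists do not give.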

Other observations

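The shortest host introns held weak members. In 6 members the intron was under 100 bp long, in ncl-1, ran-1, srw-60, mex-5, Y65B4BM.3 and col-99. Their pooled signals reached 76.1 at most, none was in the IDR set and none held an Atonal-type hexamer. A summit in such an intron is within 50 bp of an exon.

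Almost all members had a unique centre. The central 50 bp of 280 members occurred once in the genome, and those of the 30 strongest members all did. The exceptions were in ast-1 and ppfr-1, each with 49 places, exos-7 with 11 and ckb-2 with 2.

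Of the 54 members with CAGATG near the summit, 33 held it on the coding strand of the host and 25 on the opposite strand. Members that held both were counted for each strand. The 56.9% on the coding strand (exact 95% interval 43.2 to 69.8%) is therefore a share of these readings and not of members.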
